A study of Mus musculus with 12 samples.

Results

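The cadherins and protocadherins, calcium-dependent adhesion receptors of the cell surface, were followed in the embryonic mouse telencephalon after siRNAs against Dmrt3 and Dmrta2 or an expression plasmid for Dmrta2, 2 DM-domain transcription factors. Members were the genes whose symbol is Cdh followed by a number alone or begins with Pcdh, without Cdh1 and Cdh5, the cadherins of epithelium and endothelium. Of 91 such symbols, 67 were named on the array, through 85 probes, and the other 24 were not analysed here. Of the 67, 60 were tested, since their probe was marked well above background by the scanner software for 3 or more of the 12 arrays, and the fit ran over 15369 genes in all. Of the 60, 48 were well above background on all 12 arrays and 12 on 3 to 11 arrays.

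CD-1 embryos were electroporated in the medial telencephalon at E11.5 (embryonic day), and cells were isolated 24 hours later, at E12.5, by sorting for the nuclear EGFP whose vector all groups received. The 4 groups, of 3 independent replicates each, were a first set of siRNAs against Dmrt3 and Dmrta2 (set 1), a second set against the same genes (set 2), the Dmrta2 expression plasmid (overexpression) and control siRNAs. The labels do not say whether a replicate pools embryos. No group received an empty plasmid, so overexpression could be set against siRNA groups only, and all comparisons with control siRNAs share the same 3 control arrays. Each of 3 slides held 1 array of every group and carried 1 replicate number, with each group always at the same position, so position and group cannot be told apart.

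Classical cadherins bind cadherins on the neighbouring cell and are tied to actin through catenins. Cadherin-2 (N-cadherin) holds the neural progenitors of the ventricular zone together, and type II cadherins are expressed in patches that mark brain regions and nuclei. Protocadherins lack the catenin-binding tail. The delta protocadherins are single genes with regional patterns in the brain, and the alpha, beta and gamma protocadherins form a tandem cluster from which each neuron uses a few variable promoters, which gives neurons distinct surface identities.

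Levels are log2 signals relative to the 75th percentile of the array, differences are on the same log2 scale with the standard error (SE) of a moderated linear model (limma), and a gene was called at an adjusted p under 0.05 (Benjamini-Hochberg over all 15369 genes). In sorted cells measured in bulk, fewer cells of a type and less RNA per cell cannot be told apart. The 75th percentile of the signal lay between 572 and 1142, with the highest on set 1 replicate 2 and the next, 859, on set 2 replicate 3. The share of spots well above background was 67.1% to 72.2%. Dmrt3 stood at 53.4% of control over both siRNA sets (exact permutation p = 0.0238, two-sided; limma adjusted p = 0.162) and Dmrta2 at 72.6% (exact permutation p = 0.0714; adjusted p = 0.204). By set, Dmrt3 was at 49.4% in set 1 and 57.6% in set 2 (exact permutation p = 0.1 each). Dmrta2 was at 65.3% in set 1 and 80.6% in set 2 (exact permutation p = 0.1 and 0.3; limma adjusted p = 0.186 and 0.49). On the overexpression arrays the Dmrta2 probe read 70.8% of control, below every control array (exact permutation p = 0.1, the smallest that 3 against 3 allows). Whether this probe lies within the plasmid insert is not known, so it is no check of the plasmid, and "overexpression" below means the arrays labelled so. The telencephalic progenitor markers Emx1 and Lhx2 were well above background on all 12 arrays.

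In overexpression, 1 of the 60 members was called against control siRNAs, Cdh22 (0.273% of all genes were called), and 2 against the average of both siRNA sets, Cdh22 and Pcdh10 (2.15%). No member was called in set 1 against control siRNAs (0.234% of all genes), in set 2 (1.02%), in the average of both sets (0.67%) or in set 2 against set 1 (0.0781%). At an unadjusted p under 0.05, limma gave 13 members in set 1 (10.0% of all genes), 9 in set 2 (12.8%), 5 in the siRNA average (12.1%) and 21 in set 2 against set 1 (9.77%). The 13 in set 1 were all higher (6.06% of all genes), and the 21 in set 2 against set 1 were all lower (5.13%). Overexpression gave 4 against control siRNAs (4.44%) and 10 against the siRNA average (13.3%).

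The start regions of the called genes are shown because the genes targeted in this study encode DNA-binding proteins. Each window runs from 250 bases before to 50 bases after the start of the gene in RefSeq, build GRCm38.p6, on the strand of the gene. Cdh22 is on the minus strand (chr2:165234688-165234987) and Pcdh10 on the plus strand (chr3:45378148-45378447), and capitals mark CCAAT boxes, here read on the reverse strand as ATTGG.
Cdh22: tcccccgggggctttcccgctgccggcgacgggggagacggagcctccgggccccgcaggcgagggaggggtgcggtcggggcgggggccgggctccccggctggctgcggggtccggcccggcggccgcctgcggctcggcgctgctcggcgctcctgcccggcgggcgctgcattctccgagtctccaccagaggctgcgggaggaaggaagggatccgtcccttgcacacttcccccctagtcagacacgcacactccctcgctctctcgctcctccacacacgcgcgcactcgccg
Pcdh10: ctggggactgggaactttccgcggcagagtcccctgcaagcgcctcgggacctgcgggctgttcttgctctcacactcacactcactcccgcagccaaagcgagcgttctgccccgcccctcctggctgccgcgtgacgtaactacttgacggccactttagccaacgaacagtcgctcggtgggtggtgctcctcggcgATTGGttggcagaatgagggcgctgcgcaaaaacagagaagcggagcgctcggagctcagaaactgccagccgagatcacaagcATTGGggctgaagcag
The motif ACANTGT, the core of DM-domain binding sites, was searched on both strands and was in neither window. It was in 0 of the 23 windows that RefSeq gives for 20 of the tested members and in 7.54% of all 32851 windows. CCAAT, searched likewise, was found 2 times in the Pcdh10 window and not in that of Cdh22. It was in 16 of the 23 member windows (69.6%) and in 37.4% of all windows. These counts describe letters in windows of this length and say nothing of binding.

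Cdh22, a type II classical cadherin expressed in the brain, rose in overexpression. Its level was -0.33, -0.44 and -0.19 in overexpression, against -2.12, -2.43 and -1.90 in control siRNAs. It was -2.02, -1.87 and -2.58 in set 1 and -2.27, -2.99 and -1.94 in set 2. The 3 overexpression arrays stood together above all 9 others, and both siRNA sets overlapped the controls. The rise over control siRNAs was 3.56-fold (1.83 ± 0.27, SE, n = 3 against 3; limma adjusted p = 0.0201), with 1.80, 1.99 and 1.71 on slides 1, 2 and 3. Over the siRNA average it was 3.89-fold (1.96 ± 0.23, n = 3 against 6; limma adjusted p = 0.00237).

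Against control siRNAs, the Cdh22 call was lost when any 1 of 5 arrays was left out. Limma gave 1.85 (adjusted p = 0.105) without control 1, 1.69 (0.0878) without control 2, 1.84 (0.106) without overexpression 1, 1.89 (0.0679) without overexpression 2 and 1.77 (0.129) without overexpression 3. Against the siRNA average it passed without any 1 of the 12 arrays. Among the surface ectoderm markers, the keratin Krt8 was well above background on the 3 overexpression arrays and on no other, at least 3.58-fold higher than in control siRNAs (limma adjusted p = 0.00302). The summed signal of the 5 tested surface ectoderm markers was 0.31 to 0.37 times the 75th percentile in overexpression and 0.15 to 0.24 times in control siRNAs, while the defining markers Cdh1 and Cldn6 were too dim to be tested. Of the 8 microglia and macrophage markers, 4 were called higher in overexpression (0.273% of all genes against control siRNAs, either direction), with a median difference of 1.65. Their summed signal overlapped, at 3.33 to 6.27 times the 75th percentile in overexpression and 2.37 to 6.01 in control siRNAs. Hem and choroid plexus markers had array medians of 0.67, 0.61 and 0.78 in overexpression, against -0.42, 0.23 and 0.21 in control siRNAs, and erythroid markers of 1.96, 1.37 and 0.55, against 0.04, -0.11 and 0.12. In array medians both lists thus lay above every control array. The summed signal of the hem and choroid plexus markers overlapped, at 4.74 to 6.63 times the 75th percentile in overexpression and 3.69 to 4.89 in control siRNAs. That of the 6 tested erythroid markers did not overlap, at 5.30 to 11.05 times in overexpression and 2.02 to 3.93 in control siRNAs. The part of these markers in the Cdh22 result was not tested.

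Pcdh10 (OL-protocadherin), a delta-2 protocadherin that recruits the WAVE complex to cell contacts, stood on opposite sides of control in the siRNA and overexpression arrays. Its level was -0.98, -1.38 and -0.95 in overexpression, 0.27, 0.46 and 0.06 in set 1, 0.01, 0.11 and 0.06 in set 2, and -0.60, -0.34 and -0.57 in control siRNAs. With this probe all 6 siRNA arrays lay above every control array and all 3 overexpression arrays below every control array. In overexpression Pcdh10 fell to 0.417 of its level in the siRNA average (-1.26 ± 0.13, SE, n = 3 against 6; limma adjusted p = 0.00075), with -1.12, -1.66 and -1.01 on slides 1, 2 and 3. It passed this test in all 21 other settings tried, with -1.34 to -0.98.

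Against control siRNAs, Pcdh10 passed in neither direction. The siRNA average gave 0.67 ± 0.13 (limma adjusted p = 0.0519), set 1 gave 0.77 ± 0.15 (0.069), set 2 gave 0.56 ± 0.15 (0.124) and overexpression gave -0.60 ± 0.15 (0.261). On slides 1, 2 and 3 the siRNA average differed by 0.74, 0.63 and 0.63. It passed when overexpression 2 was left out of the shared fit (adjusted p = 0.039). The second Pcdh10 probe gave -0.70 ± 0.21 in overexpression against the siRNA average (limma adjusted p = 0.146 over all probes), and 0.08, 0.46 and -0.43 in set 1, set 2 and overexpression against control siRNAs (SE 0.24 each). The signs stayed the same and the sizes were smaller, and the set 1 difference was below its SE. With this probe set 1, at -0.01, -0.62 and -0.72, and set 2, at 0.30, -0.11 and -0.41, overlapped the controls, at -0.26, -0.63 and -0.71, while overexpression, at -0.76, -0.91 and -1.23, lay below them. The progenitor markers Pax6 and Vim were also called lower in overexpression than in the siRNA average, by -1.52 ± 0.27 (adjusted p = 0.0172) and -0.58 ± 0.11 (0.024). Their part in the Pcdh10 result was not tested.

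**Figure D1:**
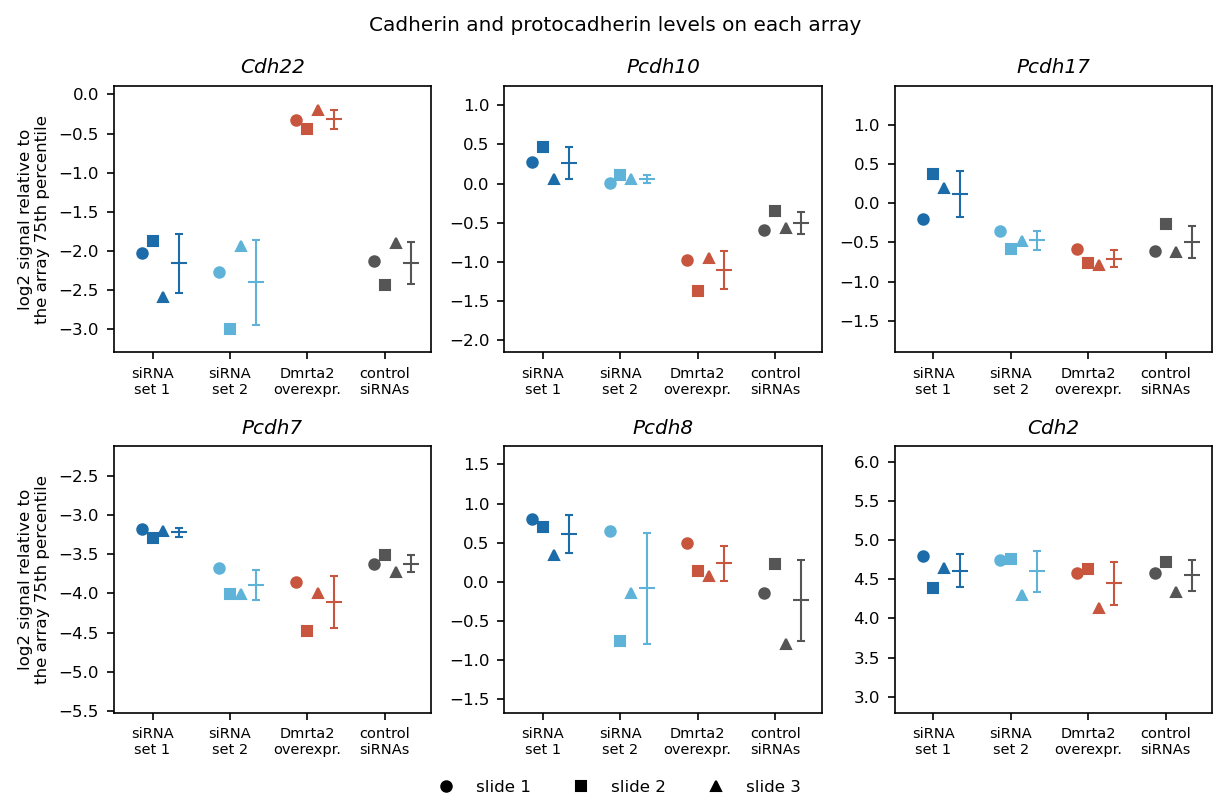
Level of 6 members on each array (log2 signal relative to the array's 75th percentile). Symbols are arrays, with the shape giving the slide, and the dash with its bar is the mean ± SD of 3 arrays. Cdh22 is high on the 3 overexpression arrays alone, Pcdh10 lies above the controls on all 6 siRNA arrays and below them on all 3 overexpression arrays, and Cdh2 overlaps between all groups.

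The other delta-2 protocadherins were well above background on all 12 arrays, and none was called. Pcdh17, a homophilic receptor that helps axons extend along each other, was at -0.20, 0.37 and 0.19 in set 1, against -0.61, -0.26 and -0.62 in control siRNAs. Every set 1 array lay above every control array (0.62 ± 0.16; limma adjusted p = 0.178), while set 2, at -0.35, -0.59 and -0.49, overlapped the controls (0.02 ± 0.16). Overexpression gave -0.53 ± 0.14 against the siRNA average (adjusted p = 0.0957), which passed only without set 1 replicate 1 (-0.61; adjusted p = 0.0365).

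Pcdh8 (arcadlin), which takes part in the internalisation of N-cadherin at synapses, was at 0.80, 0.70 and 0.34 in set 1, against -0.14, 0.23 and -0.80 in control siRNAs. Its set 1 arrays also lay above all controls, with a wider spread (0.85 ± 0.35; limma adjusted p = 0.429). Pcdh18 differed from control by 0.30, -0.02 and -0.06 in set 1, set 2 and overexpression, and Pcdh19, whose human counterpart is an X-linked epilepsy gene, by -0.07, -0.20 and -0.06. The 5 delta-2 genes had a median difference of 0.62 in set 1, 0.02 in set 2 and -0.06 in overexpression, against -0.01, 0.00 and 0.00 over all genes. In set 1, 3 of the 5 lay above every control array (7.41% of all genes).

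Of the delta-1 protocadherins, Pcdh7 (NF-protocadherin), which guides axon growth in the frog retina, was at -3.85, -4.48 and -3.99 in overexpression, -3.17, -3.29 and -3.20 in set 1, -3.68, -4.01 and -4.01 in set 2 and -3.62, -3.52 and -3.73 in control siRNAs. With this probe set 1 lay above all controls and overexpression below all of them, and set 2 overlapped the controls on 1 array. The other 2 Pcdh7 probes gave -0.40 and -0.02 in overexpression against control siRNAs, both with overlapping arrays, and 0.98 and 0.88 in set 1, the second with overlap. No difference passed: limma gave 0.40 ± 0.17 in set 1 (adjusted p = 0.444), -0.27 ± 0.17 in set 2 (0.558), -0.49 ± 0.17 in overexpression (0.644) and -0.55 ± 0.14 in overexpression against the siRNA average (0.0906). With quantile normalization the last of these passed.

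The 3 Pcdh7 probes gave 0.06, 0.65 and 0.72 for the siRNA average against control siRNAs, and -0.55, -1.05 and -0.74 for overexpression against the siRNA average, where the probe at -1.05 passed (limma adjusted p = 0.0429 over all probes). Pcdh9 was at -5.13, -5.05 and -5.22 in overexpression, just below all controls at -5.04, -5.00 and -4.86 (-0.17 ± 0.38), and set 1 spread from -5.13 to -3.16 (0.75 ± 0.38; adjusted p = 0.591). The second Pcdh9 probe gave 0.49, 0.53 and -0.29 in set 1, set 2 and overexpression against control siRNAs, each with overlapping arrays. Between set 2 and set 1 it gave 0.04, where the first probe gave -0.63. Pcdh1 differed from control by -0.03 to 0.01. Among the 3 remaining single protocadherins, Pcdh15, a part of the tip link of hair cells, was at -3.09, -3.22 and -3.44 in set 2, below every control array at -3.03, -2.75 and -2.52 (-0.48 ± 0.17; adjusted p = 0.247). Its 5 probes gave -0.80 to -0.15 for that difference. Pcdh20 and Pcdh12, an endothelial protocadherin, were not called in any comparison.

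No type I classical cadherin was called, and Cdh2 overlapped between all groups. It was at 4.80, 4.38 and 4.65 in set 1, 4.74, 4.76 and 4.29 in set 2, 4.57, 4.64 and 4.13 in overexpression and 4.58, 4.72 and 4.34 in control siRNAs, with differences from control of 0.06, 0.05 and -0.10 (SE 0.19 each). Cdh4 (R-cadherin), which is expressed in restricted territories of the developing forebrain and retina, was at 1.32, 1.30 and 0.83 in overexpression, against 0.61, 0.88 and 0.69 in control siRNAs. Overexpression 3 fell within the control range, while all 3 overexpression arrays lay above those of set 2, at 0.53, 0.27 and 0.73. The difference was 0.42 ± 0.18 (limma adjusted p = 0.995), and 0.50 ± 0.15 against the siRNA average (0.152). Its other 2 probes gave 0.43 each against control siRNAs, 1 of them with every overexpression array above every control array.

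Apart from Cdh22, no type II cadherin was called, and the median of the 10 tested was 0.10 in set 1, -0.08 in set 2 and -0.13 in overexpression. Cdh11 (OB-cadherin), known from mesenchyme, was at -2.90, -3.54 and -3.04 in set 2, below every control array at -2.55, -2.45 and -2.81 (-0.56 ± 0.23; limma adjusted p = 0.345). Its second probe gave -0.16. Besides Pcdh10, Cdh10 and Cdh7 were the members lower on every overexpression array than on every siRNA array, 3 of 60 (3.34% of all genes), by -0.66 ± 0.27 and -0.62 ± 0.20 (adjusted p = 0.306 and 0.182). Cdh7 was at -3.72, -3.75 and -3.73 in overexpression, -3.29, -3.30 and -2.38 in set 1, -3.34, -3.23 and -3.15 in set 2 and -3.74, -3.23 and -3.74 in control siRNAs, so overexpression lay close to 2 of the 3 control arrays.

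Cdh10 spread widely in control siRNAs, at -3.94, -2.89 and -4.43. Its difference between overexpression and the siRNA average passed without control 2 (limma adjusted p = 0.0462) and when the control arrays were left out of the fit altogether (0.0388), and was -0.20 with normexp background correction. The differences of Cdh12, Cdh20 and Cdh24 from control ran from -0.10 to -0.05, from -0.47 to 0.06 and from -0.24 to 0.35. Cdh6 and Cdh8, which mark areas of the early cortex, differed from control by 0.18, -0.05 and 0.18 and by -0.06, 0.01 and -0.32 in set 1, set 2 and overexpression. Among the atypical cadherins, Cdh13 (T-cadherin), which is held in the membrane by a lipid anchor, differed by 0.48, 0.42 and 0.49 in set 1, set 2 and overexpression (SE 0.36 each), while its controls ran from -1.06 to 0.25. Cdh26 differed by -0.11, 0.05 and 0.02, and the type I cadherin Cdh15 (M-cadherin), known from muscle, by 0.18, -0.11 and -0.07.

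**Figure D2:**
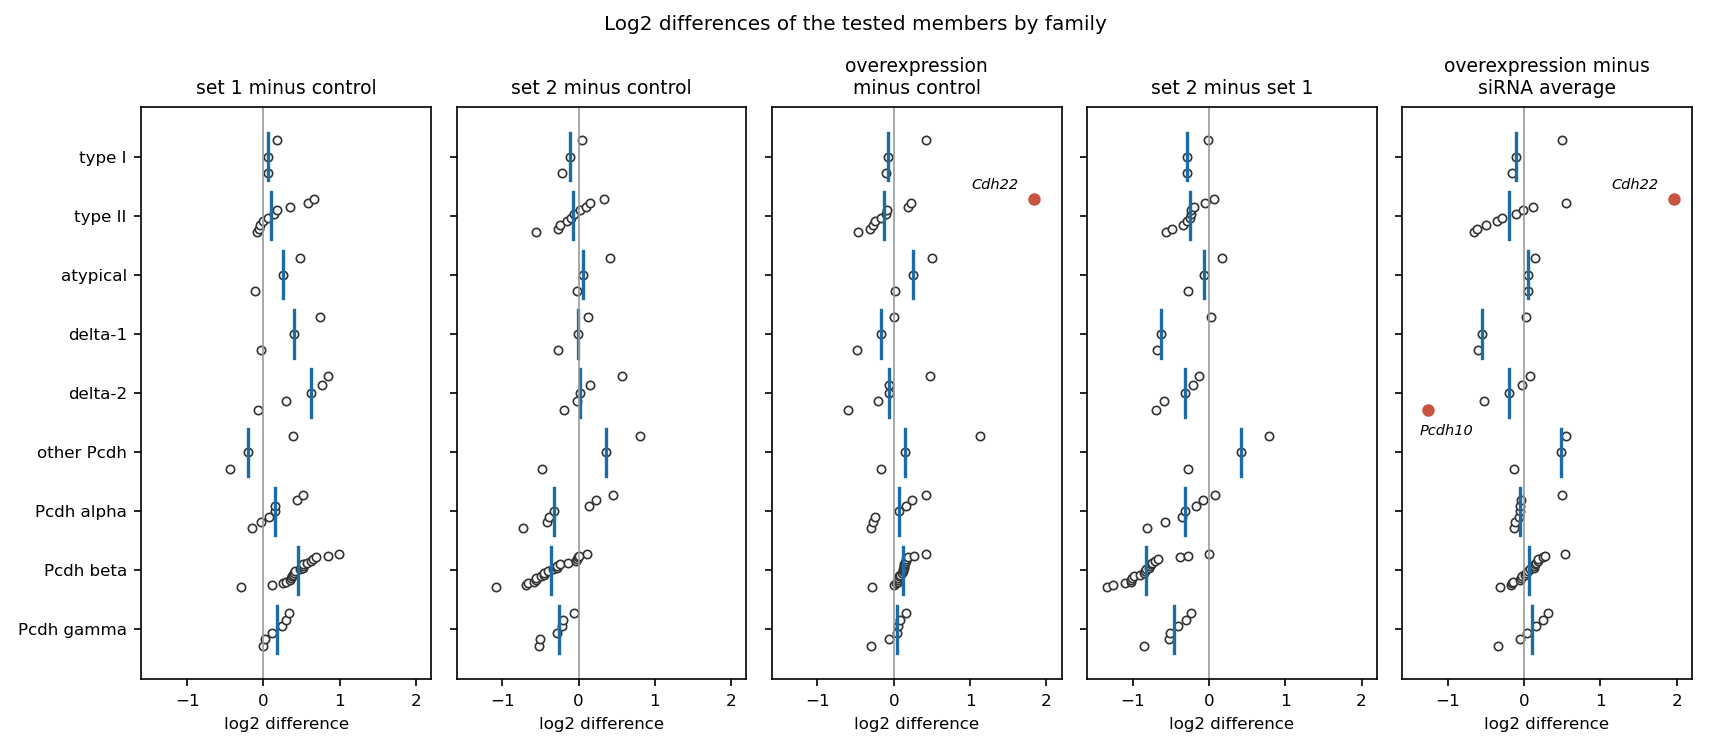
Log2 differences of the 60 tested members by family in 5 comparisons. Circles are genes, filled red where the adjusted p was under 0.05, and blue lines are family medians. Cdh22 and Pcdh10 are the filled points, and the beta protocadherins lie at or below 0 in set 2 minus set 1, with a median of -0.83.

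The clustered protocadherins, on chromosome 18, gave 33 tested genes: 7 alpha, 20 beta and 6 gamma. Alpha isoforms share constant exons, as do gamma isoforms, and the beta genes resemble each other in sequence. Probe sequences were not used here, so whether a probe also reads neighbouring isoforms was not tested. None of the 33 was called in any of the 6 comparisons.

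The beta genes were lower in set 2 than in set 1 as a group, by a median of -0.83, against 0.02 over all genes. All 20 had a difference below 0 (45.6% of all genes), and 16 were lower at an unadjusted p under 0.05 (5.13%). For 16, every set 2 array lay below every set 1 array (6.29% of all genes). The median was -0.50, -0.99 and -1.08 on slides 1, 2 and 3, and 17 genes were lower on each slide (16.2% of all genes). The other 336 tested genes of chromosome 18 had a median of 0.00. The 20 genes are neighbours of similar sequence measured in the same arrays, and are not 20 replicates of the difference.

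Pcdhb20 had the lowest adjusted p of the members in this comparison. It was at -2.01, -2.41 and -2.59 in set 2, against -1.27, -1.40 and -1.28 in set 1 (-1.02 ± 0.20, SE, n = 3 against 3; limma adjusted p = 0.111). Its control arrays, at -1.72, -1.33 and -1.96, lay between the sets or within set 1. Pcdhb16 was at -3.01, -3.35 and -3.47 in set 2, against -2.51, -2.01 and -1.99 in set 1 (-1.10 ± 0.23; adjusted p = 0.126). Both also lay below every control array in set 2, by -0.67 ± 0.20 and -0.68 ± 0.23 (adjusted p = 0.182 and 0.222).

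Pcdhb19 and Pcdhb2, each well above background on 11 arrays, differed between set 2 and set 1 by -1.25 ± 0.42 and -1.03 ± 0.29 (limma adjusted p = 0.331 and 0.24). Pcdhb13 was well above background on 2 set 1 arrays and on no set 2 array, and was at least 1.34-fold lower in set 2 (adjusted p = 0.326). The 4 genes whose arrays overlapped were Pcdhb12, Pcdhb8, Pcdhb7 and Pcdhb1, at -0.00, -0.27, -0.38 and -0.76. Over the 15 beta genes that were well above background on all 12 arrays, the median was -0.78 and 12 did not overlap.

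Against control siRNAs the sets lay on opposite sides. In set 1 the beta median was 0.45, with 19 of 20 differences above 0 (47.8% of all genes) and 8 genes above every control array (7.41%). Pcdhb2 was at -4.98, -4.76 and -4.72 in set 1, against -6.06, -5.11 and -6.24 in control siRNAs (0.99 ± 0.29; limma adjusted p = 0.241), and Pcdhb5 gave 0.85 ± 0.28 (0.308). Without control 2, Pcdhb2 and Cdh10 were called in set 1, Pcdhb2 at 1.34. In set 2 the beta median was -0.37, with 18 of 20 below 0 (49.7% of all genes) and 3 genes below every control array (7.87%). In overexpression it was 0.13, with 0 genes apart from the controls in either direction (7.55% of all genes).

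The slides differed in these values. The beta median was 0.37, 0.18 and 0.77 in set 1, -0.06, -0.73 and -0.36 in set 2 and 0.28, -0.50 and 0.51 in overexpression, each against the control array of the same slide. Taken against the mean of the controls instead, single arrays had beta medians of 0.38, 0.56 and 0.50 in set 1, -0.15, -0.45 and -0.60 in set 2, 0.25, -0.25 and 0.32 in overexpression and -0.08, 0.34 and -0.28 in control siRNAs. Set 1 thus stood above every control array and set 2 overlapped them on slide 1.

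**Figure D3:**
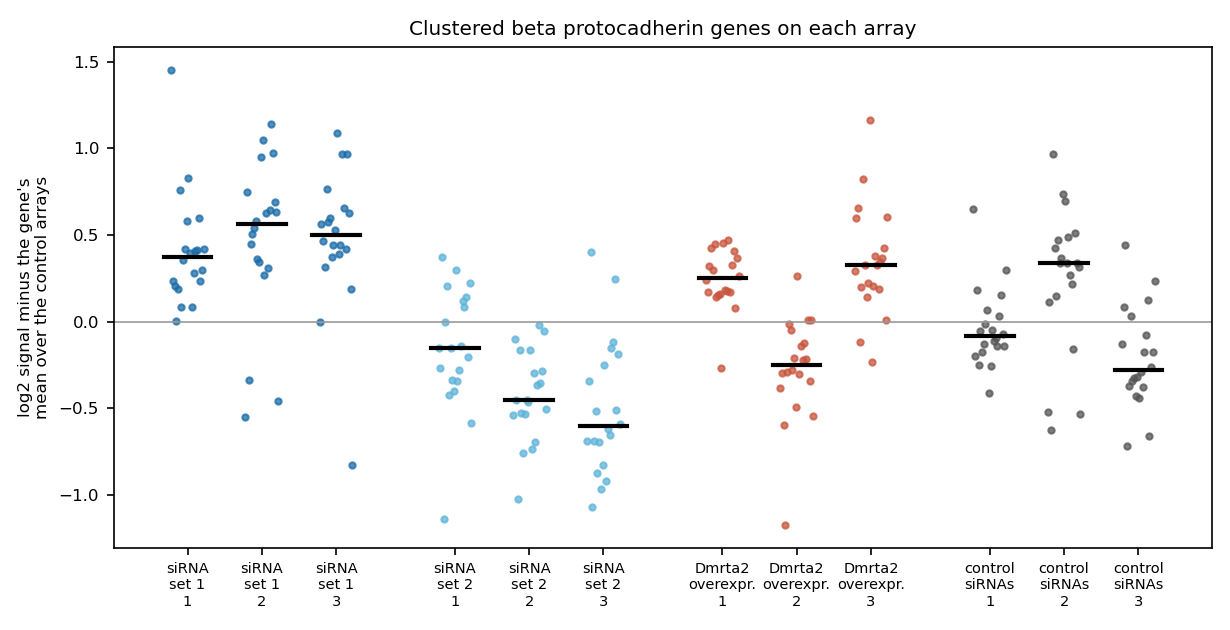
Log2 signal of the 20 tested beta protocadherins on each array, minus the gene's mean over the 3 control arrays. Points are genes and black bars the array medians, which run from 0.38 to 0.56 in set 1, from -0.60 to -0.15 in set 2 and from -0.28 to 0.34 in control siRNAs.

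The size of the difference between the sets depended on the processing. The beta median in set 2 against set 1 was -0.28 with normexp, a setting that changes the signal column and the background method and adds an offset of 50, which were not tested apart. It was -0.79 with quantile normalization and -0.83 in the authors' deposited log2 table. Leaving out 1 array gave -0.93 to -0.73. With normexp, Pcdhb20 and Pcdhb16 differed between set 2 and set 1 by -0.74 and -0.71, Pcdhb19 and Pcdhb2 by -0.25 and -0.19, and Pcdhb2 and Pcdhb5 differed between set 1 and control siRNAs by 0.12 each.

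Markers of other cell types also differed between the sets. The median of the 8 neuron markers was -0.27 in set 2 against set 1, with 0 called, and by array relative to control it was 0.31, -0.62 and 0.08 in set 2, 0.27, 0.20 and 0.24 in set 1 and 0.09, 0.50 and -0.52 in control siRNAs. Control 2 was the highest and control 3 the lowest control array for the neuron markers and for the beta genes. The summed neuron marker signal ran from 55.56 to 108.99 times the 75th percentile in set 2, from 85.72 to 111.38 in set 1 and from 66.38 to 112.42 in control siRNAs. On slides 1, 2 and 3 the neuron markers differed by -0.04, -0.62 and -0.14 between the sets, beside -0.50, -0.99 and -1.08 for the beta genes.

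The 8 microglia and macrophage markers differed by a median of 0.81 in set 2 against set 1, with 0 called, and 5 of them were called higher in set 2 than in control siRNAs (1.02% of all genes, either direction). Their summed signal was 3.33 to 6.23 times the 75th percentile in set 2, 2.15 to 5.69 in set 1 and 2.37 to 6.01 in control siRNAs. The 5 tested mesenchyme markers differed by -1.59, with -4.25, -0.71 and -0.07 on slides 1, 2 and 3. Their summed signal was 0.22 to 0.33 in set 2, 0.32 to 5.01 in set 1 and 0.25 to 0.27 in control siRNAs. The 8 hem and choroid plexus markers separated the sets in summed signal but not in array medians. Their summed signal was 3.77, 4.03 and 2.66 times the 75th percentile in set 2, against 6.44, 6.29 and 4.62 in set 1. It was 3.69, 4.89 and 4.45 in control siRNAs. Their array medians relative to control overlapped, from -0.03 to 0.28 in set 2 and from 0.20 to 0.45 in set 1. Their median difference was -0.25, with 0 called. The part of these markers in the beta difference was not tested.

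**Figure D4:**
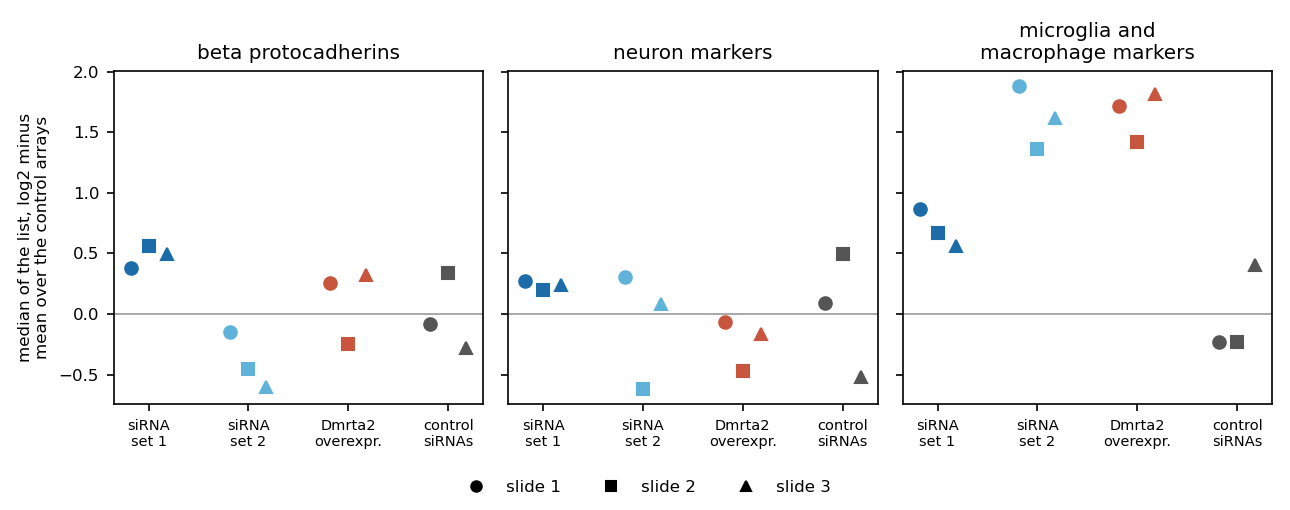
Median over the 20 beta protocadherins, the 8 neuron markers and the 8 microglia and macrophage markers on each array (log2 signal minus the gene's control mean). Symbols are arrays, with the shape giving the slide. The beta medians of set 1 lie above those of set 2 on each slide, the neuron markers of set 2 are low on slide 2 at -0.62, and the microglia and macrophage markers lie above every control array in the 3 other groups.

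Gamma and alpha genes also had medians below 0 in set 2 against set 1, -0.46 for the 6 gamma genes (6 below 0) and -0.31 for the 7 alpha genes (6 below 0). Of all genes, 45.6% were below 0 in this comparison. Pcdhga9 was at 3.04, 2.69 and 3.01 in set 2, against 3.25, 3.50 and 3.20 in set 1, without overlap (-0.40 ± 0.16; limma adjusted p = 0.439). Its second probe was far dimmer, at -1.79, -2.21 and -1.82 in set 2 and -1.40, -1.26 and -1.58 in set 1. It gave -0.53, also without overlap. Whether either probe also reads other gamma isoforms was not tested. Pcdhga10 had the lowest gamma value, -0.85 ± 0.34, with overlapping arrays. Among the alpha genes, values ran from -0.81 for Pcdha4 to 0.07 for the C-type isoform Pcdhac2. The other C-type alpha isoform, Pcdhac1, was at -5.73, -5.65 and -5.62 in set 1, against -5.95, -6.34 and -6.29 in control siRNAs (0.52 ± 0.19; limma adjusted p = 0.373). It was the 1 of 7 alpha genes whose set 1 arrays all lay above the controls (7.41% of all genes). Over all 60 members, the 20 beta genes among them, the median between the sets was -0.36 with 54 below 0. Over the 27 that are not clustered it was -0.25 with 22 below 0 (45.6% of all genes). With normexp the medians were -0.08 for gamma, -0.01 for alpha and -0.14 for all members. Whether the clustered and the other members differ was not tested.

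The 7 members left untested were dim. Cdh17, Cdh19 and Cdh23 were well above background on 0 arrays, Cdh3 (P-cadherin) on overexpression 2 alone, Pcdhb11 and Pcdhb9 on 1 array each and Cdh9 on 2 set 2 arrays. Of the tested members, Cdh16 and Cdh18 were not well above background on any control array. Cdh18 was at least 1.08-fold higher in set 1 (limma adjusted p = 0.963), and no other bound of these 2 genes against control exceeded 1.

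The partners of the family were mostly not called. Of 15 tested catenins and adherens junction partners, 1 was called in 1 of the 6 comparisons. Ctnna1, alpha-E-catenin, which links beta-catenin to actin, fell in set 2 against control siRNAs (1.02% of all genes were called there, either direction). It was at 3.11, 3.23 and 3.12 in set 2, against 3.78, 3.70 and 3.79 in control siRNAs (-0.61 ± 0.11, SE; limma adjusted p = 0.0377), and at 3.77, 3.88 and 3.75 in set 1. Of 15 tested other members of the cadherin superfamily (Fat, Celsr and calsyntenin genes among them) and 19 effectors and regulators of protocadherins (Fyn, the WAVE complex genes Cyfip1 and Nckap1, and Ctcf among them), 0 were called in all 6 comparisons. At an unadjusted p under 0.05, set 2 against control siRNAs gave 1 higher and 1 lower junction partner, 2 lower superfamily genes and 1 lower effector or regulator (12.8% of all genes in either direction).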

How the data were processed

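Total RNA (0.1 ug) was labelled with Cy3 and hybridised to 12 one-colour Agilent arrays. Spot intensities were extracted by the authors with Agilent Feature Extraction 10.5.1.1, per the submitters' processing notes. The deposited intensities (gProcessedSignal) are background-subtracted, per the file headers. Here log2 was taken, each array's 75th percentile subtracted, and outlier and control spots left out (136 to 218 of 43020 spots per array were outliers). Precision is limited by how many arrays there are. The authors' deposited log2 table (correlation with these values above 0.999, column medians -0.13 to 0.10) was an alternative; how it was centred is not given in the sources used here.

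Probes were named through RefSeq accessions (26055 of 39429 probes, 19751 genes). A gene was represented by the probe with the highest mean over 12 arrays, and tested if that probe was well above background on at least 3 arrays. Group means were fitted on all 12 arrays with limma 3.58.1 in R 4.3.3 (lmFit, eBayes, two-sided, 8 residual degrees of freedom), and the fit was tested on simulated data. Dmrt3 and Dmrta2 also had an exact permutation test in scipy 1.17.1. For a probe not well above background on any array of a group, the fold is a lower bound: the brighter group's mean against, per array, the higher of the lowest signal well above background and the probe's own.

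Alternatives were no filter, a filter on all 12 arrays, quantile normalization, normexp (offset 50, on gMedianSignal and gBGMedianSignal, since gMeanSignal was not in the files used), the deposited table, the mean of all probes, only the groups compared, the replicate block, each array left out and, chosen after seeing the data, the percentile over spots with no outlier mark. Replicate number equals slide per the file headers, and same-numbered arrays deviated together (r 0.020 to 0.600 over 18 pairs, against -0.516 to 0.212 over 36 pairs of different number). Genes named were those called, up to 4 largest non-overlapping rises and falls per comparison, and 12 members named whatever their values. Other members named were chosen after their values were seen. The members and lists were chosen with earlier results of these data known.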

Additional observations from a re-analysis of the deposited data

Results flagged for a closer look

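Arrays on opposite sides of control, or a called difference between overexpression and siRNAs, led to 3 members being listed here. The share of all genes with arrays on opposite sides of control was not computed, so that pattern is a description only. Cdh22 differed by 1.96 between overexpression and the siRNA average, and Pcdh10 by -1.26, both by a test of that difference (limma adjusted p = 0.00237 and 0.00075). With the Pcdh10 probe used, every array of set 1 lay above the controls (0.77) and every overexpression array below them, and the same held for set 2 (0.56). With the second Pcdh10 probe both sets overlapped the controls. With the Pcdh7 probe used, every array of set 1 lay above the controls (0.40) and every overexpression array below them. With the other 2 Pcdh7 probes overexpression overlapped the controls (-0.40 and -0.02). For each single set the difference from overexpression was not tested. For the average of both sets, overexpression gave a limma adjusted p of 0.0906 for Pcdh7, which did not pass. Pcdh7 is thus listed for the position of its arrays with the probe used, and not for a called difference. Groups of 3 arrays are too small to look for single outlying arrays.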

How the results depend on the processing

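The number of members called was computed under 21 other settings for each of 6 comparisons. In set 2 against control siRNAs and in set 2 against set 1 it was 0 throughout, also in the range over arrays left out (0 to 0). For the siRNA average it was 0 to 1 with 1 array left out, being 1 (Pcdh10) without overexpression 2, and 1 when only genes well above background on all 12 arrays were tested. In set 1 it was 0 to 2, being 2 without control 2. In overexpression against control siRNAs it was 0 to 1, being 0 without control 1, control 2 or any 1 overexpression array, and 1 in the other settings. Against the siRNA average it was 2 to 3 throughout, and Cdh22 and Pcdh10 were called in all 21. The third was Pcdh17 without set 1 replicate 1, Cdh10 without control 2 or with only the groups compared, Pcdh7 with quantile normalization and Cdh23, dim on all arrays, with no filter. The replicate block (slide) changed no call among the members: Cdh22 had an adjusted p of 0.0385 over control siRNAs and 0.00478 over the siRNA average, and Pcdh10 of 0.00267 over the siRNA average and 0.0536 for the siRNA average over control. Over all genes the block called 233 in the siRNA average (103 without it), 114 in set 1 (36), 365 in set 2 (157), 33 in set 2 against set 1 (12) and 527 in overexpression against the siRNA average (330). The cause of the other changes was not tested. Dim members limit the comparison: 12 of the 60 were not well above background on every array.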
